A study of Arabidopsis thaliana with 9 samples.

Results

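The comparison of scl3 mutant roots with wild-type roots of Arabidopsis thaliana rested on 6 of the 9 arrays of the series, 3 titled scl3 and 3 titled Col-0, chosen by those titles. The scl3 plants carried the allele scl3-1 in the Col-0 ecotype, and the Col-0 plants were the wild type. The other 3 arrays, of a line overexpressing SCL3 (SCL3 OE, also in Col-0), were outside the comparison and are given only as values beside it. RNA came from whole roots at 7 days after germination, from plants grown on MS medium at 22 °C with 16 h of light and 8 h of dark. Each sample was hybridised to 1 Affymetrix ATH1 array, on which a probe set, a group of short probes, reports on a transcript. The series calls the samples biological triplicates. The labels give 1 mutant allele, and they do not say how many plants went into a sample. Where samples share a culture or plate, which the labels do not tell, p-values measure only the spread between these arrays.

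SCL3 belongs to the GRAS family of plant transcriptional regulators, as do SCARECROW, SHORT-ROOT and the DELLA proteins. DELLA proteins restrain growth, and gibberellin removes them: the hormone binds the GID1 receptors, which then bring DELLA proteins to an F-box protein for degradation. SCL3 is known to act in the gibberellin pathway in the root, mainly in the endodermis, and the comparison asks which root transcripts differ when it is lost. The annotation used here named no probe set for SCL3 itself, so its transcript in the mutant could not be checked by name.

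The arrays labelled replicate 3 stood apart from the others in both genotypes. Over 22746 plant probe sets, scl3 and Col-0 arrays of replicates 1 and 2 correlated at 0.959 to 0.962, within a genotype as between genotypes. The replicate 3 arrays correlated at 0.943 with each other and at 0.818 to 0.825 with the other 4 arrays. Probe sets are the points of these correlations and are no independent replicates. Transcripts of leaf photosynthesis were abundant in the replicate 3 arrays, although the label is whole root. RCA, the activase of Rubisco, had log2 signals of 7.74, 8.57 and 14.62 in scl3 replicates 1, 2 and 3, against 8.00, 8.24 and 14.49 in Col-0. PRK, a Calvin cycle kinase, had log2 signals of 4.17, 4.71 and 13.19 in scl3, against 5.34, 5.80 and 12.80 in Col-0. All 4 leaf genes with a named probe set (RCA, PRK, SBPASE and PORB) had higher log2 signals in both replicate 3 arrays than in the other 4 arrays. Of the root genes, PYK10, a root beta-glucosidase, had log2 signals of 14.99, 14.96 and 14.02 in scl3, against 14.95, 15.17 and 14.07 in Col-0. AT1G09750, of the same list, had log2 signals of 6.98, 7.71 and 12.29 in scl3, against 7.11, 7.44 and 12.41 in Col-0. Of the 5 root genes with a named probe set, AT1G09750 and AT1G62500 were higher in both replicate 3 arrays than in the other 4, and PYK10, EXPA7 and EXPA18 were lower. Both genotypes hold 1 such array, and replicate 3 was therefore fitted as an array set of its own. The part of leaf RNA in the differences below was not tested.

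1 probe set of 22746, a share of 0.0044%, differed between scl3 and Col-0. This probe set, 261866_at, has no gene name in the annotation used here. Its log2 signals were 4.0, 4.59 and 4.59 in scl3, against 9.55, 9.59 and 9.13 in Col-0. The scl3 values all lay more than 4 log2 units below every Col-0 value, and the groups did not overlap. In signal units it stood at 15.0, 23.0 and 23.1 in scl3, against 748, 770 and 561 in Col-0. The log2 difference, scl3 minus Col-0, was -5.03 ± 0.26 (SE, 3 arrays each), with an adjusted p of 0.000934 in limma with array set as a term. The scl3 signals were far below the array medians of 159 to 191, so the fold depended on the offset: 32.7-fold lower in scl3 with an offset of 1 and 13.8-fold lower with 32 (log2 difference -3.78). It was lower by a log2 difference of -5.28 within replicates 1 and 2, and of -4.54 within replicate 3. In the 3 SCL3 OE arrays its log2 signals were 11.83, 11.90 and 11.79. The level of 261866_at was thus lowest in scl3 and highest in SCL3 OE. Whether this probe set reports SCL3 itself or another gene cannot be told from the annotation used here. An exact 2-sided permutation test within array sets has 12 arrangements and gave p = 0.167, the smallest it can give. The call was lost, with the log2 difference still near -5, in limma with group as the only term (adjusted p = 0.111), without a variance trend (adjusted p = 0.0975), without Col-0 replicate 1 (adjusted p = 0.0619) and without Col-0 replicate 2 (adjusted p = 0.0603).

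**Figure D1:**
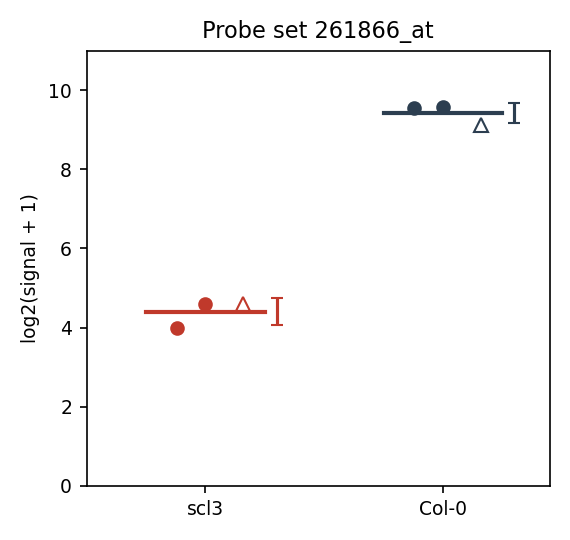
Log2(signal + 1) of probe set 261866_at in each array, scl3 on the left and Col-0 on the right. Filled circles are replicates 1 and 2, open triangles are replicate 3, horizontal lines are means of 3 arrays and bars are ± SD; the scl3 arrays lie between 4.0 and 4.59 and the Col-0 arrays between 9.13 and 9.59.

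No other probe set passed, and the next smallest adjusted p in limma was 0.828. At an unadjusted p under 0.05, 649 probe sets were higher in scl3 (2.85%) and 662 were lower (2.91%), together 5.76% of those tested. The median log2 difference over all probe sets was 0.00, and 50.2% of them lay above 0. Apart from 261866_at, which the counts of shifts below include, the differences described from here on therefore did not pass the test. They are given as values of these 6 arrays.

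The spread of differences was narrower in replicates 1 and 2 than in replicate 3. Low mean signals were left out here by keeping the 13647 probe sets whose mean log2 signal over the 6 arrays exceeded 6.69. This is the 40th percentile, a signal of 103. A probe set dim in replicates 1 and 2 could still pass through high signals in replicate 3. The SD of the log2 difference between scl3 and Col-0 arrays of the same number was 0.247 for replicate 1, 0.273 for replicate 2 and 0.425 for replicate 3. A difference of at least 0.5, a 1.41-fold change, was found for 4.56%, 6.35% and 17.1% of the probe sets in these pairs. Across probe sets, the differences in replicates 1 and 2 correlated at 0.149 with each other, and their mean correlated at 0.0402 with the differences in replicate 3. These pairs share no array.

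Small consistent shifts within replicates 1 and 2 were defined as both scl3 values above, or both below, both Col-0 values, with means at least 0.5 apart. They were found for 124 probe sets higher in scl3 (0.909%) and 117 lower in scl3 (0.857%). The shifted probe sets were dimmer than the rest, with a median log2 signal of 7.57 against 8.74 over all 13647.

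The replicate 3 arrays entered this choice only through the filter on mean signal, and their difference had the same sign for 130 of the 241 shifts, or 53.9%. Over all 13647 probe sets the signs were the same for 50.7%. With a filter on replicates 1 and 2 alone, an alternative added after the data were seen, 181 of the 241 shifts (75.1%) were kept. The others were dim in the arrays that defined the shift. Under that filter the sign was the same for 114 of 210 shifts (54.3%), against 50.9% of all probe sets above it. By direction, the sign was the same for 69 of 124 shifts that were higher in scl3 (55.6%) and for 61 of 117 that were lower (52.1%). The median size of the shifts was 0.60 in replicates 1 and 2, and their median in replicate 3, counted in the direction of the shift, was 0.04. The 0.60 follows in part from the minimum of 0.5 in the choice, and replicate 3 is a single pair of arrays.

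The shares were also taken at other minimum differences and for probe sets with like levels in both array sets. With a minimum difference of 1, 18 shifts were left, of which replicate 3 had the same sign for 7 of 8 higher and 4 of 10 lower ones. With a minimum of 0.25, replicate 3 had the same sign for 52.8% of 1648 shifts. Of the 241 shifts, 94 (39.0%) belonged to probe sets whose replicate 3 arrays lay within 1 log2 unit of the other arrays, against 63.3% of all probe sets above the filter. Among those 94 the sign was the same in replicate 3 for 52.1%, against 50.7% of all such probe sets.

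Some shifts were as large in replicate 3. A difference of at least 0.5 the same way was found in replicate 3 for 44 of the 241 shifts (18.3%), and the other way for 24 (9.96%). Over all 13647 probe sets, 8.73% had such a difference the same way as replicates 1 and 2 and 8.38% the other way. The 44 comprised 29 of 124 shifts higher in scl3 and 15 of 117 lower in scl3. These counts were chosen after the values were seen, and the balance of the same way and the other way depended on single arrays. When the shifts were chosen without scl3 replicate 1, 88 were at least 0.5 the same way in replicate 3 and 110 the other way. Without Col-0 replicate 2 the counts were 76 and 99, without scl3 replicate 2 they were 72 and 42, and without Col-0 replicate 1 they were 105 and 57. With an array left out the no-overlap rule is looser, and more than 241 shifts were chosen. The sizes of these counts therefore cannot be compared with 44 and 24.

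**Figure D2:**
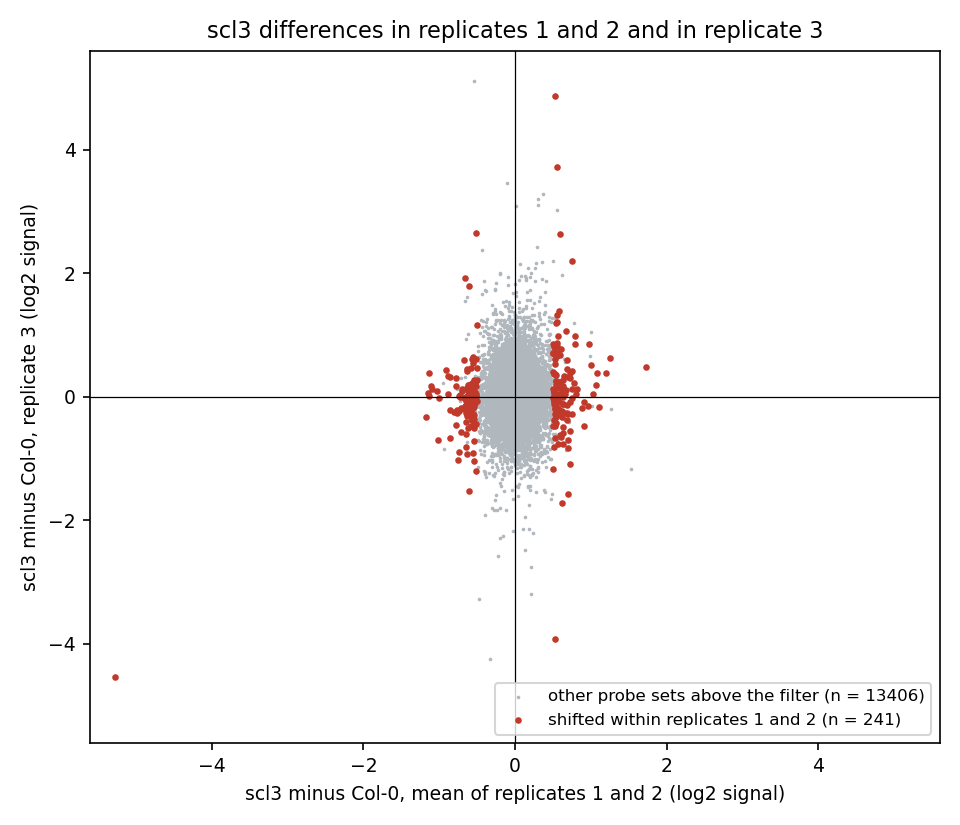
Log2 difference, scl3 minus Col-0, as the mean of replicates 1 and 2 (horizontal axis) and in replicate 3 (vertical axis), 1 point per probe set above the filter. Red points are the 241 shifts chosen within replicates 1 and 2, of which 130 have the same sign in replicate 3; the single point at the lower left is probe set 261866_at.

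The named genes with the most extreme differences were taken from probe sets of 1 gene that did not overlap between the genotypes in replicates 1 and 2 and lay the same way in replicate 3. Over all 13647 probe sets, 1257 met this with higher values in scl3 (9.21%) and 1228 with lower values (9%). The 10 highest had log2 differences of 0.84 to 1.28, and the 10 lowest of -0.91 to -0.67. Their adjusted p-values in limma were 0.828 to 0.834. The rule used these 6 arrays, so the direction in each array set is a description of the choice.

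Among genes above Col-0 in scl3, AT2G04620 had log2 differences of 0.98 in replicates 1 and 2 and 0.86 in replicate 3. The gene had log2 signals of 7.52, 7.21 and 7.24 in scl3, against 6.61, 6.17 and 6.38 in Col-0. The replicate 3 arrays had levels close to those of the other arrays, and all scl3 values lay above all Col-0 values. In SCL3 OE arrays AT2G04620 averaged 7.25 ± 0.12 (SD, n = 3). AT5G48240 had log2 signals of 9.84, 9.39 and 8.46 in scl3, against 8.62, 8.10 and 7.84 in Col-0, a log2 difference of 1.05 ± 0.20 (SE), with 1.26 in replicates 1 and 2 and 0.62 in replicate 3. Its scl3 replicate 3 lay below Col-0 replicate 1, so the groups overlapped when array set was ignored.

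AT1G72900 and AT1G35350 had higher signals in replicate 3 than in replicates 1 and 2 of both genotypes. AT1G72900 had log2 signals of 7.98, 8.14 and 9.90 in scl3, against 7.46, 7.49 and 8.52 in Col-0. Its log2 difference was 0.58 in replicates 1 and 2 and 1.38 in replicate 3. AT1G35350 had log2 signals of 7.03, 7.43 and 9.52 in scl3, against 6.28, 6.17 and 9.01 in Col-0. In both genes the scl3 array lay above the Col-0 array of the same set in every pair. CCOAMT, named for a caffeoyl-CoA O-methyltransferase, an enzyme type of phenylpropanoid metabolism, had log2 signals of 8.57, 9.33 and 6.48 in scl3, against 7.49, 8.25 and 6.09 in Col-0.

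For the other 5 of the 10 highest, as for AT1G72900, the difference was larger in replicate 3 than in replicates 1 and 2. AT4G28460 had log2 signals of 9.22, 9.74 and 4.89 in scl3, against 8.64, 9.13 and 2.25 in Col-0. AT5G06730 had log2 signals of 9.08, 9.13 and 5.98 in scl3, against 8.83, 8.82 and 3.55 in Col-0. Both genes were low in the replicate 3 arrays, where the log2 differences were 2.64 and 2.43, against 0.59 and 0.28 in replicates 1 and 2. Their Col-0 replicate 3 signals were 3.77 and 10.7. With an offset of 32 instead of 1, their log2 differences over the 6 arrays fell from 1.28 and 1.00 to 0.63 and 0.56. AT1G76640, the calmodulin-like gene CML39, a calcium sensor by family, had log2 signals of 8.11, 7.78 and 7.95 in scl3, against 7.38, 7.68 and 6.08 in Col-0. Its values in SCL3 OE arrays were 5.12, 5.57 and 3.32. AT5G48110 and AT3G47480, the remaining pair, differed between array sets and are described further on.

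Among the 10 lowest genes, AT2G26690 had the smallest standard error. This gene is NPF6.2, a member of the nitrate and peptide transporter family, and its log2 signals were 7.53, 7.27 and 9.68 in scl3, against 8.03, 8.07 and 10.49 in Col-0. The log2 difference was -0.70 ± 0.12 (SE), with -0.65 in replicates 1 and 2 and -0.81 in replicate 3. The gene was more than 2 log2 units higher in the replicate 3 arrays of both genotypes. CYP718, a cytochrome P450, had log2 signals of 8.24, 8.02 and 5.73 in scl3, against 9.12, 8.63 and 6.61 in Col-0. Its differences were -0.74 in replicates 1 and 2 and -0.89 in replicate 3.

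AT4G27657 had log2 signals of 6.49, 6.42 and 8.40 in scl3, against 7.72, 7.23 and 9.09 in Col-0. AT1G62510 had log2 signals of 7.16, 7.12 and 9.50 in scl3, against 7.67, 7.64 and 10.70 in Col-0. AT4G22460 had log2 signals of 7.72, 8.12 and 5.87 in scl3, against 8.36, 8.68 and 7.40 in Col-0. In these 3 genes too, every scl3 array lay below both Col-0 arrays of its own array set, or below the single one in replicate 3. For the other 5, AT1G14960, AT3G53980, AT1G03740, AT2G39040 and AT5G15180, the log2 difference was -0.41 to -0.38 in replicates 1 and 2, and -1.92 to -1.19 in replicate 3.

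**Figure D3:**
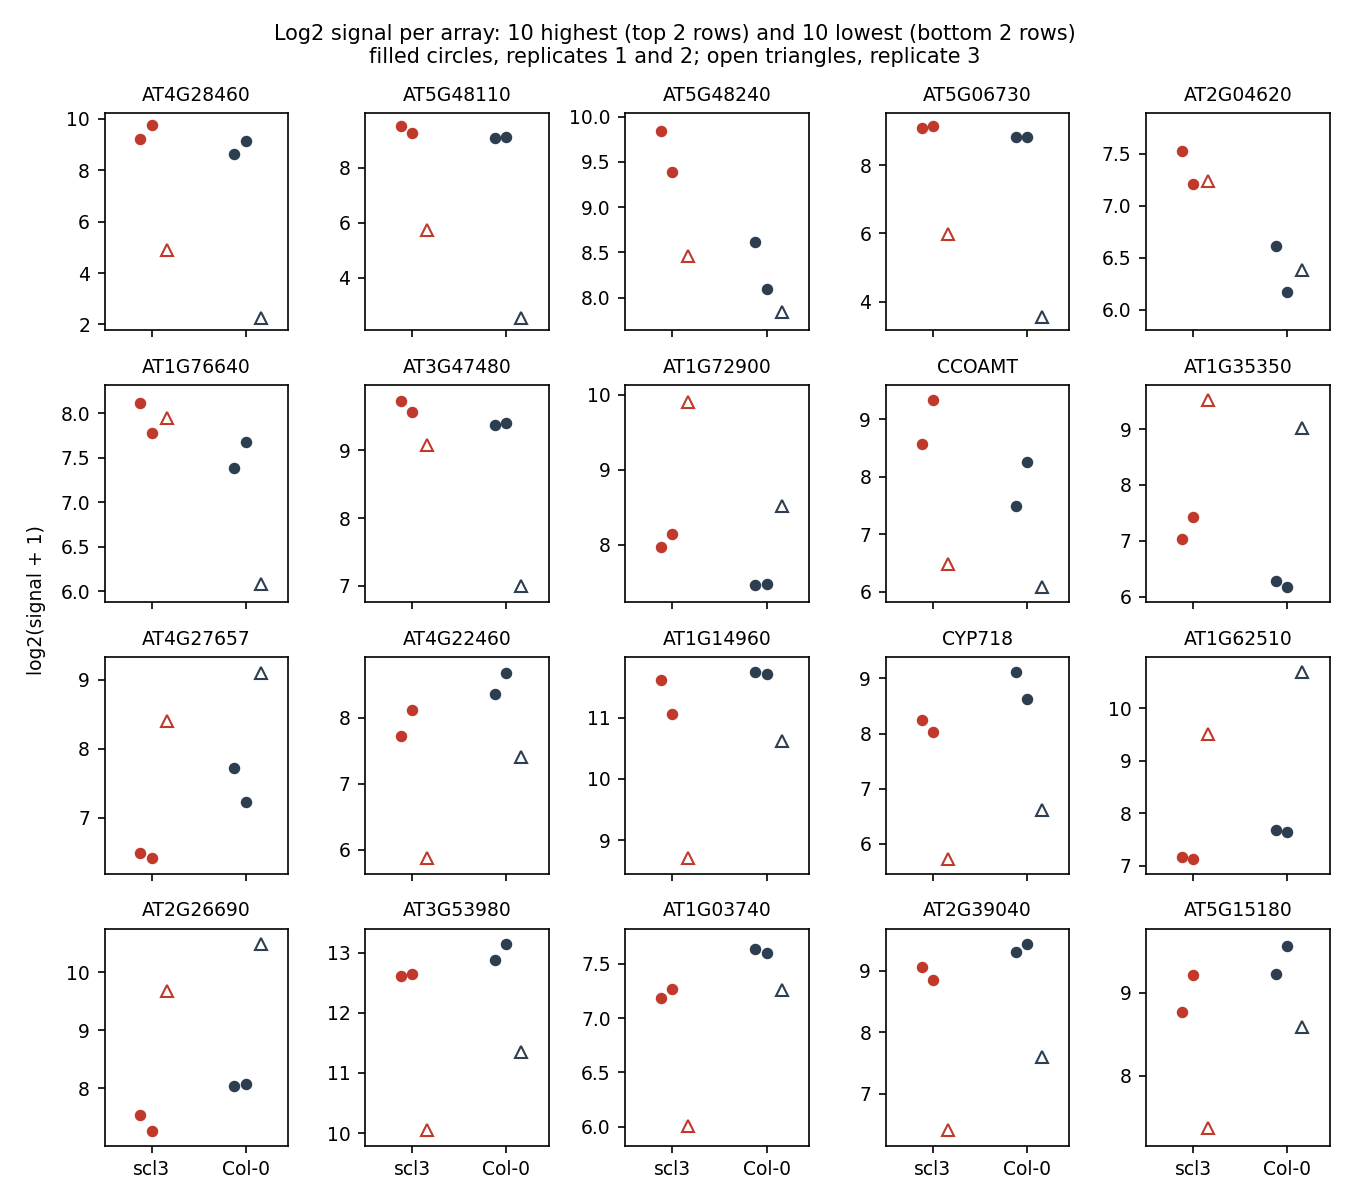
Log2(signal + 1) per array of the 10 named genes with the highest differences (upper 2 rows) and the 10 with the lowest (lower 2 rows), scl3 left and Col-0 right in each panel, with a vertical scale of its own. Filled circles are replicates 1 and 2 and open triangles are replicate 3; in AT2G04620 and AT5G48240 the filled circles are at least 0.6 apart between genotypes, while in AT5G48110 and AT3G47480 the triangles are far apart and the circles close.

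Other genes had opposite signs in the array sets. Of the 7303 probe sets of 1 named gene above the filter, 94 (1.29%) were higher and 113 (1.55%) lower in scl3 within replicates 1 and 2 with no overlap, while replicate 3 differed by at least 0.5 the other way. A difference of that size the same way was found for 125 (1.71%) that were higher and 105 (1.44%) that were lower. Over all 13647 probe sets these shares were 1.30% and 1.50% the other way, and 1.80% and 1.61% the same way. AT5G48490 had log2 signals of 5.21, 5.40 and 11.25 in scl3, against 4.84, 4.33 and 12.34 in Col-0. It passed the filter only through replicate 3. In replicates 1 and 2 its signals were 36.0 and 41.4 in scl3 and 27.7 and 19.1 in Col-0, below 103. AT1G71140 had log2 signals of 9.95, 10.60 and 5.59 in scl3, against 9.54, 9.63 and 6.42 in Col-0. For these genes the level changed between array sets by far more than between genotypes. MSRA5, a methionine sulfoxide reductase, had log2 signals of 9.33, 9.51 and 9.73 in scl3, against 9.86, 10.09 and 9.18 in Col-0, so that its sign turned at similar levels. AT4G16230 and AT5G11550 had differences of 0.73 and 0.69 in replicates 1 and 2, and of -0.56 and -0.70 in replicate 3. AT5G11550 too passed the filter only through replicate 3. Its signals in replicates 1 and 2 were 86.0 and 79.6 in scl3 and 41.5 and 62.2 in Col-0. AT2G14095, MYR2 and AT1G03180 had -0.61, -0.57 and -0.55 in replicates 1 and 2, and 1.79, 0.61 and 0.64 in replicate 3.

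Whether the scl3 difference itself depended on the array set was tested with a genotype by array set term in limma, added after the data were seen. It called 25 of 22746 probe sets (0.11%), with adjusted p-values of 0.0105 to 0.0495. The difference was larger in size in replicate 3 for all 25, and 14 of them had opposite signs in the 2 array sets. Replicate 3 has 1 array per genotype, so its spread was taken from replicates 1 and 2, although the differences spread more widely in replicate 3. At an unadjusted p under 0.05 the term had 14.4% of probe sets. The calls are therefore given as values of these arrays, not as shown differences. With other settings the count ran from 0 to 62, and leaving out either scl3 replicate 1 or scl3 replicate 2 left 0. Of the 25, 11 had a named gene.

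CHIL, a chalcone isomerase-like protein of flavonoid synthesis, had log2 signals of 10.08, 9.99 and 9.30 in scl3, against 10.24, 10.24 and 7.30 in Col-0. OSM34, an osmotin, had log2 signals of 13.44, 13.37 and 12.88 in scl3, against 13.19, 13.09 and 11.01 in Col-0. In both genes the Col-0 replicate 3 array was the low one, and the other 5 arrays lay within 1 log2 unit of each other. AT1G49570 had log2 signals of 8.50, 8.03 and 10.66 in scl3, against 8.45, 8.30 and 7.20 in Col-0. AT3G61390 had log2 signals of 9.47, 10.20 and 1.50 in scl3, against 9.16, 9.46 and 5.42 in Col-0. Its replicate 3 signals were 1.83 in scl3 and 41.9 in Col-0, both far below the array medians. With an offset of 32 instead of 1, its log2 difference over the 6 arrays went from -0.96 to -0.04. Of the 25 called probe sets, 14 were higher in scl3 in replicate 3, so the direction there differed between probe sets.

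No gene of gibberellin signalling was called. Of the 7 with a named probe set, 3 had log2 differences above 0 and 4 below, and 1 had an unadjusted p under 0.05, against 5.37% of the 13286 named genes. Their median log2 difference was -0.08, against 0.00 over the named genes. Of the receptors, GID1B had log2 signals of 9.13, 9.19 and 9.70 in scl3, against 9.15, 8.91 and 8.87 in Col-0. Its log2 difference was 0.36 ± 0.15 (SE, unadjusted p = 0.0451 in limma), with 0.13 in replicates 1 and 2 and 0.83 in replicate 3. GID1A had log2 signals of 8.48, 8.49 and 10.52 in scl3, against 8.25, 8.06 and 10.50 in Col-0, a log2 difference of 0.33 in replicates 1 and 2 and of 0.02 in replicate 3. GID1C had log2 signals of 6.77, 6.46 and 7.54 in scl3, against 6.62, 6.87 and 8.33 in Col-0. The 3 receptor genes did not share a direction.

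SLY1, the F-box protein that recruits DELLA proteins for degradation, had a log2 difference of -0.24 ± 0.10 (SE), and its relative SLY2 had 0.10 ± 0.15. SPY and SEC, sugar transferases that modify DELLA proteins, had log2 differences of -0.17 ± 0.13 and -0.08 ± 0.09. Of the genes listed as DELLA targets or gibberellin-responsive, XERICO, a RING-type protein known in abscisic acid response, had log2 signals of 10.25, 10.39 and 10.15 in scl3, against 10.09, 10.15 and 10.59 in Col-0. AT2G31730 and AT5G50915, also of this list, had log2 differences of -0.21 ± 0.23 and -0.56 ± 0.44. The list of gibberellin biosynthesis and inactivation had no gene with a named probe set.

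The GRAS family had 14 genes with a named probe set, of which 9 were above the filter. None had an unadjusted p under 0.05, 5 had differences above 0 and 9 below, and the median log2 difference was -0.07. LAS, the lateral suppressor gene of shoot branching, had log2 signals of 6.52, 6.79 and 5.38 in scl3, against 6.44, 5.92 and 4.03 in Col-0 (log2 difference 0.77 ± 0.35, SE). LAS was below the filter, and its log2 difference was 0.44 with an offset of 32. AT2G37650 had log2 signals of 6.93, 6.75 and 7.01 in scl3, against 7.13, 7.11 and 7.67 in Col-0. SCL21 had log2 signals of 7.44, 7.77 and 8.33 in scl3, against 7.70, 7.54 and 8.83 in Col-0. Among genes of the ground tissue, JKD, a zinc finger partner of SCARECROW and SHORT-ROOT, had a log2 difference of -0.13 ± 0.24, and none of the 6 with a named probe set had an unadjusted p under 0.05.

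Of the 4 calcium and wound response genes with a named probe set, 3 had an unadjusted p under 0.05 and lay below Col-0, against 5.37% of named genes in either direction, and none was called. The median log2 difference of the 4 was -0.41. STZ, a zinc finger repressor of stress responses also named ZAT10, had log2 signals of 10.16, 10.26 and 9.72 in scl3, against 10.58, 10.58 and 10.48 in Col-0. All scl3 values of STZ lay below all Col-0 values, with a log2 difference of -0.51 ± 0.10 (SE). In the SCL3 OE arrays STZ had log2 signals of 7.97, 7.51 and 7.47. WRKY53, a transcription factor of defence and senescence, had log2 signals of 7.19, 7.44 and 6.29 in scl3, against 7.98, 7.83 and 6.61 in Col-0. AT4G27280 had log2 signals of 11.44, 11.62 and 11.17 in scl3, against 12.06, 11.99 and 11.15 in Col-0, with no gap in replicate 3. CML38, the remaining gene, a calmodulin-like protein, had a log2 difference of 0.12 ± 0.18.

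**Figure D4:**
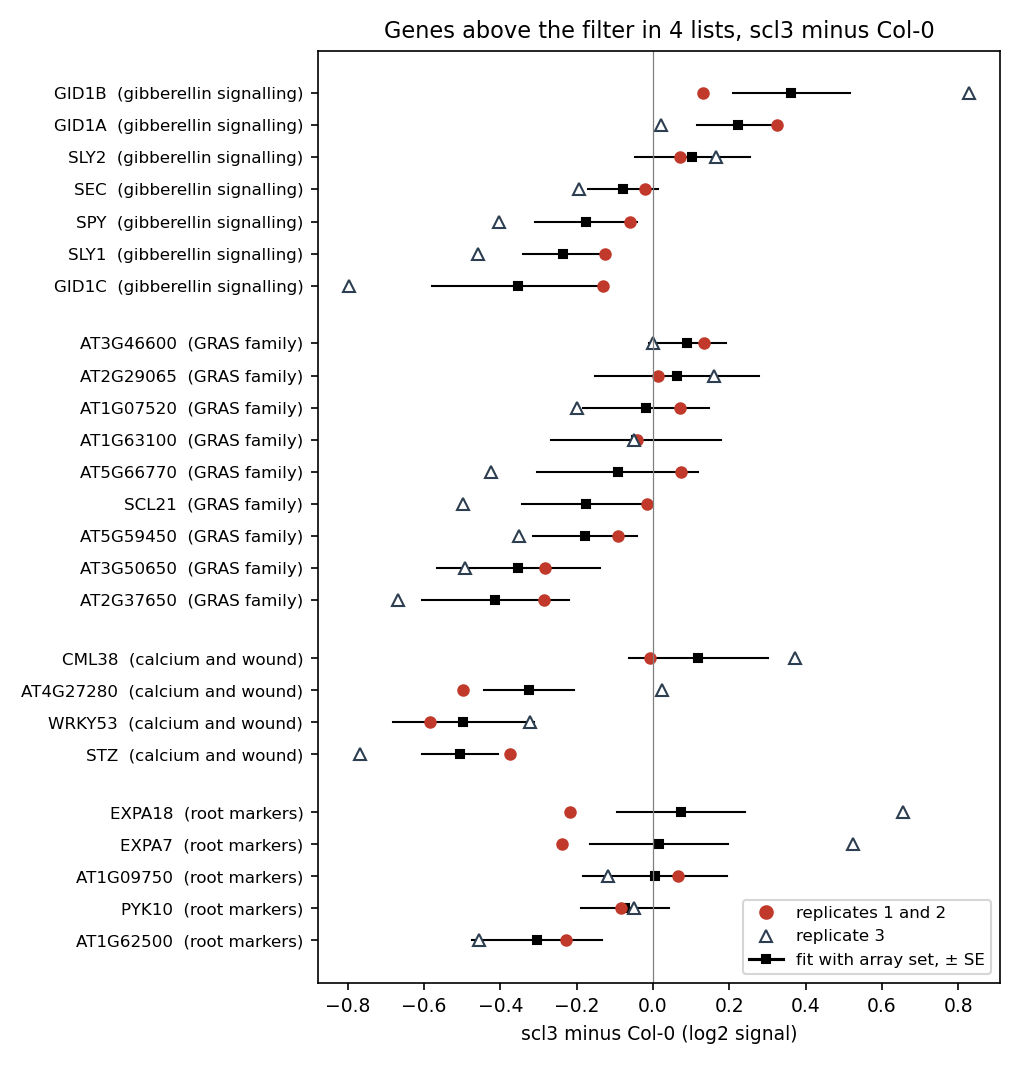
Log2 difference, scl3 minus Col-0, of the genes above the filter in 4 lists, 1 gene per line. Red circles are means of replicates 1 and 2, open triangles are replicate 3, and black squares with bars are the limma estimate with array set as a term ± SE; in GID1B the replicate 3 value (0.83) lies well above that of replicates 1 and 2 (0.13), and STZ and WRKY53 lie below 0 in both.

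Larger families had medians near 0. Over the 25 lists with at least 5 genes, the median log2 difference ran from -0.20 for auxin genes to 0.13 for iron response genes, and no member of any list was called. Of 47 UDP-glycosyltransferases, which attach sugars to hormones and metabolites, 4 (8.51%) had an unadjusted p under 0.05 and lay above Col-0, against 5.37% of named genes in either direction. In the family 27 genes had differences above 0 and 20 below, with a median of 0.06. The median was -0.03 in replicates 1 and 2 and 0.30 in replicate 3. UGT74B1, an enzyme of glucosinolate synthesis, had log2 signals of 11.29, 11.21 and 10.51 in scl3, against 11.14, 10.95 and 10.15 in Col-0. Of 13 glutathione transferases 5 had differences above 0 and 8 below, with a median of -0.15, and 3 had an unadjusted p under 0.05, 2 above Col-0 and 1 below. GSTU25 had log2 signals of 12.17, 12.18 and 8.11 in scl3, against 11.95, 11.88 and 7.60 in Col-0. UGT74B1 and GSTU25 lay above Col-0 within each array set by less than 0.6. GSTU27 had log2 signals of 11.06, 10.94 and 10.05 in scl3, against 11.11, 11.30 and 10.25 in Col-0.

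Of the 18 expansins, which loosen cell walls, none had an unadjusted p under 0.05. EXPA18 and EXPA7, both known from root hairs, differed on the log2 scale by -0.22 and -0.24 in replicates 1 and 2, and by 0.65 and 0.52 in replicate 3. RALFL27, a small signalling peptide of the RALF type, had log2 signals of 9.92, 10.17 and 6.89 in scl3, against 10.51, 10.47 and 7.44 in Col-0 (log2 difference -0.48 ± 0.10, SE). BGLU25, a beta-glucosidase, had log2 signals of 13.68, 14.16 and 10.09 in scl3, against 13.51, 13.69 and 9.37 in Col-0. Both were lower in the replicate 3 arrays of both genotypes, and the sign of their difference was the same in both array sets.

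Of the 69 genes of the plastid genome, 3 had an unadjusted p under 0.05 above Col-0 and 1 below, together 5.80%, a share near the 5.37% of all named genes. psbM, a small subunit of photosystem II, had log2 signals of 12.87, 13.03 and 14.91 in scl3, against 12.66, 12.36 and 14.17 in Col-0. ccsA, needed for cytochrome c maturation, had log2 signals of 9.29, 9.51 and 12.82 in scl3, against 9.88, 9.85 and 13.06 in Col-0. The median log2 difference of the plastid genes was 0.23 in replicates 1 and 2 and -0.21 in replicate 3. Of 22 genes with a named probe set among the 20 protein-coding genes on either side of the SCL3 locus, 11 had differences above 0 and 11 below. FU, a kinase named FUSED, was the 1 with an unadjusted p under 0.05, with log2 signals of 8.11, 8.30 and 6.35 in scl3, against 8.34, 8.41 and 7.68 in Col-0.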

How the data were processed

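The authors deposited 1 linear signal intensity for each probe set and array. Per the submitters' processing notes these were computed by MAS5, and the notes also name Affymetrix Expression Console 1.1; labelling started from 300 ng of total RNA per the labels. Each array had a 2% trimmed mean near 500, and array medians ran from 159 to 191, so values were used as deposited. No detection calls were used, and the number of arrays limits the precision.

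Analysis used log2(signal + 1) over 22746 probe sets after leaving out 64 controls. Log2 differences of dim probe sets depend on this offset: that of 261866_at was -5.03 with 1 and -3.78 with 32. limma 3.58.1 in R 4.3.3 fitted genotype and array set (replicate 3 against replicates 1 and 2) to 6 arrays, with a variance trend, 3 residual degrees of freedom and Benjamini-Hochberg adjustment at 0.05. The fit was also run on simulated data with equal spread in all arrays, which does not test the wider spread of replicate 3. Figures used matplotlib 3.10.9.

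The annotation gave 13513 probe sets 1 gene, 503 several and 8730 none; 13436 matched RefSeq (TAIR10.1). Lists used the brightest probe set of each of 13286 genes. The members, the design, the named-gene rule and 28 lists were chosen with earlier results of these data known. A further 11 lists were written after some values had been seen, and 3 lists (cytochrome P450, histone and peroxidase) were corrected by gene name after values were seen. Loci in the lists were written from background knowledge. Of these 39 lists, 25 had at least 5 genes, 9 had 1 to 4 and 5 had none; 1 more list is not reported here. Named genes were the called probe set, the 10 highest and 10 lowest with no overlap in either array set, up to 3 per list by p, and the 4 most extreme each way that turned in replicate 3; the interaction genes, AT2G31730, AT5G50915, XERICO, CML38 and JKD lie outside this rule and were chosen after their values were seen.

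Deviations from the group means correlated at 0.513, 0.503 and 0.765 between same-numbered arrays, which would pair them, but this follows the array sets: within replicates 1 and 2 the value was 0.0168.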

Additional observations from a re-analysis of the deposited data

Results flagged for a closer look

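The genotype by array set term in limma called 25 probe sets. AT5G48110 had log2 signals of 9.54, 9.27 and 5.75 in scl3, against 9.10, 9.12 and 2.54 in Col-0. Its difference in replicate 3 exceeded that in replicates 1 and 2 by 2.91 on the log2 scale. The replicate 3 signals of AT5G48110 were low, at 52.7 in scl3 and 4.81 in Col-0. With an offset of 32 instead of 1, its log2 difference over the 6 arrays fell from 1.27 to 0.59. AT3G47480 had log2 signals of 9.72, 9.56 and 9.08 in scl3, against 9.37, 9.39 and 7.00 in Col-0, and its difference in replicate 3 exceeded that in replicates 1 and 2 by 1.83. In SCL3 OE arrays AT3G47480 had log2 signals of 4.97, 2.07 and 3.96. The term rests on 1 array per genotype in replicate 3, takes its spread from the less variable replicates 1 and 2, and called 0 probe sets without scl3 replicate 1 or without scl3 replicate 2, so it does not show that the difference depends on the array set.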

How the results depend on the processing

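The interaction term, the counts of at least 0.5 in replicate 3, the split by array-set distance, the filter on replicates 1 and 2 alone and the leave-one-out shift counts were added after the data were seen, and 16 alternative fits of the genotype difference and 9 of the interaction were run beside the reported ones. The count of called probe sets was also 1 under 12 of the 16, the replicate block among them (1 call, adjusted p of 261866_at 0.00566), and became 0 with group only (log2 difference -5.03), with no variance trend (-5.03) and in 2 of the fits without 1 array (0 to 1 calls, -5.28 to -4.79). The block changed no call among the named genes. The count at an unadjusted p under 0.05 was 235 with group only and 833 with a random block, against 1311. The 25 interaction calls became 62 with the filter, 2 with offset 32, 4 with quantile normalization, 12 with median centring, 0 with no variance trend, and 0 to 10 without 1 array. The 241 shifts became 133 with offset 32, 1648 at a minimum of 0.25, 18 at a minimum of 1, 2421 with no filter and 428 to 615 without 1 array. Their same-sign share was 61.1% at a minimum of 1, and 47.9% to 55.6% without 1 array.

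Some uncalled differences near 0 turned sign. With both replicate 3 arrays left out, AT2G14095 had -0.61, PORB 0.00607, EXPA18 -0.22 and EXPA7 -0.24. With offset 32, AT2G14095 had -0.00965 and AT5G48490 -0.12. With quantile normalization EXPA7 had -0.000126 and AT1G09750 -0.0154, and with median centring AT1G09750 had -0.0102. Without 1 array, the log2 difference ran over -0.61 to 0.51 for AT2G14095, -0.55 to 0.15 for AT1G03180, -0.20 to 0.72 for AT5G48490, -0.15 to 0.69 for AT1G71140, -0.0683 to 0.69 for AT5G11550, -0.0671 to 0.27 for PRX52, -0.16 to 0.32 for RCA, -0.18 to 0.52 for SBPASE, -0.52 to 0.0392 for PORB, -0.22 to 0.21 for EXPA18, -0.24 to 0.21 for EXPA7 and -0.22 to 0.20 for AT1G09750.

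List medians moved by more than their SD over the 3 pairs as follows. With both replicate 3 arrays left out they were 0.13 for DELLA targets, -0.22 for root markers, -0.0448 for iron response, 0.36 for cytochrome P450, 0.0352 for glutathione transferases, 0.0831 for WRKY and 0.0897 for beta-glucosidases. With the filter they were 0.10 for DELLA targets, 0.0929 for auxin genes, 0.15 for beta-glucosidases and -0.0446 for serine carboxypeptidases, and the cytokinin list gave no value. With offset 32 glutathione transferases had -0.0934. Without 1 array the medians ran over -0.11 to 0.13 for DELLA targets, -0.22 to 0.0824 for root markers, -0.0448 to 0.22 for iron response, -0.0528 to 0.36 for cytochrome P450, -0.12 to 0.0352 for glutathione transferases, -0.31 to 0.0831 for WRKY, -0.0923 to 0.13 for beta-glucosidases, -0.13 to -0.0258 for TBL genes, -0.16 to -0.0669 for serine carboxypeptidases, -0.0614 to 0.0187 for tetraspanins and -0.0542 to 0.0524 for the neighbours of SCL3. The cause of these changes was not tested.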
